A study of Mus musculus with 9 samples.

Results

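The translation initiation factors (eIFs) and elongation factors (eEFs) were followed as a gene family through beige adipocyte differentiation of cultured mouse cells, by counting ribosome footprints per gene. Members were the genes of the deposited table whose symbol starts with Eif or Eef and a digit, without the eIF2 kinase genes (Eif2ak), the eIF4E-binding protein genes (Eif4ebp) and pseudogenes. Of 102 symbols that matched, 4 Eif2ak genes, 3 Eif4ebp genes, 13 pseudogenes by symbol and 1 further pseudogene by its reference annotation were left out. This left 81 members among 55359 genes. The filter on low counts passed 61 of them. Of the other 20, 13 had 0 counts in every library and 7 had between 1 and 9 counts over all 9 libraries. These 20 were the 17 numbered relatives of Eif1ad, the eIF4A3-like gene Eif4a3l1, the oocyte-type cap-binding gene Eif4e1b and Eif2c5. By the reference annotation Eif2c5 names a non-coding gene and not a translation factor.

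Initiation brings the small ribosomal subunit to the start codon of an mRNA. eIF2 delivers the initiator tRNA, eIF2B recharges eIF2 with GTP, eIF3 is the scaffold on the small subunit, and the eIF4 factors recognise the cap and unwind the leader of the mRNA. During elongation eEF1A brings aminoacyl-tRNA, the eEF1B complex recharges eEF1A, and eEF2 moves the ribosome along by one codon. Many mRNAs of elongation factors and ribosomal proteins start with a tract of pyrimidines (the TOP motif), which links their translation to growth signalling through mTOR.

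The cells were preadipocytes of mouse inguinal white adipose tissue. Day 0 cells were untreated. Day 4 and day 8 cells had 2 days in a beige induction medium that held insulin, rosiglitazone, indomethacin, dexamethasone, 3,3′,5-triiodo-L-thyronine and 3-isobutyl-1-methylxanthine. They were then kept in a medium from which indomethacin, dexamethasone and 3-isobutyl-1-methylxanthine were left out. Each day had 3 libraries of ribosome-protected fragments of about 30 nucleotides. The labels give no strain, sex or number of animals and do not say whether replicates were separate cultures, and p-values here rest on the spread between libraries alone. Libraries held 30823028 to 38994892 counts, of which the members took 0.690% to 0.838%.

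The labelled identity was set against marker genes. Summed over Adipoq, Plin1, Fabp4, Pparg and Cidec, fat cell markers stood at 210.9 to 275.3 CPM (normalised read counts, scaled to a common library size) at day 0, 31889.5 to 49703 CPM at day 4 and 47842 to 51193 CPM at day 8. Markers of dividing cells (Mki67, Top2a, Ccnb1 and Cdk1) summed to 146.8 to 164.8 CPM at day 0, 68.8 to 100.4 CPM at day 4 and 28.0 to 52.2 CPM at day 8. Precursor markers (Pdgfra, Ly6a, Cd34, Dlk1 and Dpp4) summed to 827.8 to 894.8 CPM at day 0, 559.9 to 1265 CPM at day 4 and 276.9 to 427.3 CPM at day 8. Macrophage markers summed to 48.1 to 93.1 CPM at day 0, 44.7 to 56.9 CPM at day 4 and 17.4 to 42.9 CPM at day 8. Endothelial markers summed to 4.45 to 6.82 CPM at day 0, 1.89 to 5.78 CPM at day 4 and 1.898 to 2.94 CPM at day 8. Both sums and that of the precursors were thus lower at day 8 than at day 0 without overlap. Day 4 replicate 2 stood apart, with a fat cell sum of 31889.5 CPM and a precursor sum of 1265 CPM, against 559.9 and 672.2 CPM for precursor markers in the other day 4 libraries. Day 8 replicate 3 had a thermogenic marker sum of 485.9 CPM, against 1068 and 1093 CPM in replicates 1 and 2. In bulk counts of this kind, fewer cells of a type and fewer footprints per cell cannot be told apart. A footprint count reflects mRNA abundance as well as ribosome occupancy, and the RNA-seq part of the same lysates was not analysed here.

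The members changed in both directions, most of them by less than 2-fold. At day 4 against day 0, 23 of 61 tested members rose and 5 fell (adjusted p under 0.05), which is 37.7% and 8.20% of them. Over all 14714 tested genes 29.8% rose and 28.4% fell, 58.2% in all. At day 8 against day 0, 18 members rose and 16 fell (29.5% and 26.2%), beside 34.2% and 33.5% of all tested genes, 67.7% in all. Between day 8 and day 4, 5 rose and 18 fell at day 8 (8.20% and 29.5%), beside 14.7% and 17.1% of all genes, 31.8% in all. Both comparisons with day 0 share the same day 0 libraries.

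The median log2 fold change of the tested members was 0.15 at day 4 against day 0, 0.03 at day 8 against day 0 and -0.15 at day 8 against day 4, where all genes had medians of -0.02, -0.01 and -0.02. More than a 2-fold change was fitted for 5, 9 and 3 members in these comparisons (8.20%, 14.8% and 4.92%), beside 35.7%, 43.0% and 16.2% of all genes. The mean of the scaled counts was highest at day 4 in 30 members, at day 8 in 16 and at day 0 in 15. This was not counted over all genes, so it is not a trait of the members. When libraries were scaled by their plain totals, the median of all genes lay at -0.17 at day 4 against day 0 and at 0.12 at day 8 against day 4. The split of called members was then 14 higher and 10 lower at day 4 against day 0, and 13 higher and 11 lower at day 8 against day 4. The shares of all genes called with this scaling are not given here. In the comparisons that involve day 4, the balance of called rises and falls thus depended on the scaling, as did the sign of values near 0.

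Calls near the threshold depended on single libraries. At day 4 against day 0, 8 of 28 called members lost their call when 1 library was left out, namely Eif2b2, Eif2b5, Eif2s3x, Eif3j1, Eif4a1, Eif4b, Eif4e2 and Eif4g3. The same held at day 8 against day 0 for 9 of 34, namely Eif2s1, Eif2s2, Eif2s3x, Eif3b, Eif3f, Eif3l, Eif4e2, Eif5a and Eif6. For day 8 against day 4 it held for 10 of 23, namely Eef1e1, Eef2k, Eif1a, Eif2s3y, Eif3e, Eif3l, Eif4b, Eif4enif1, Eif5 and Eif5a2. The adjusted p of these calls with all libraries ran from 0.0107 to 0.0486.

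**Figure D1:**
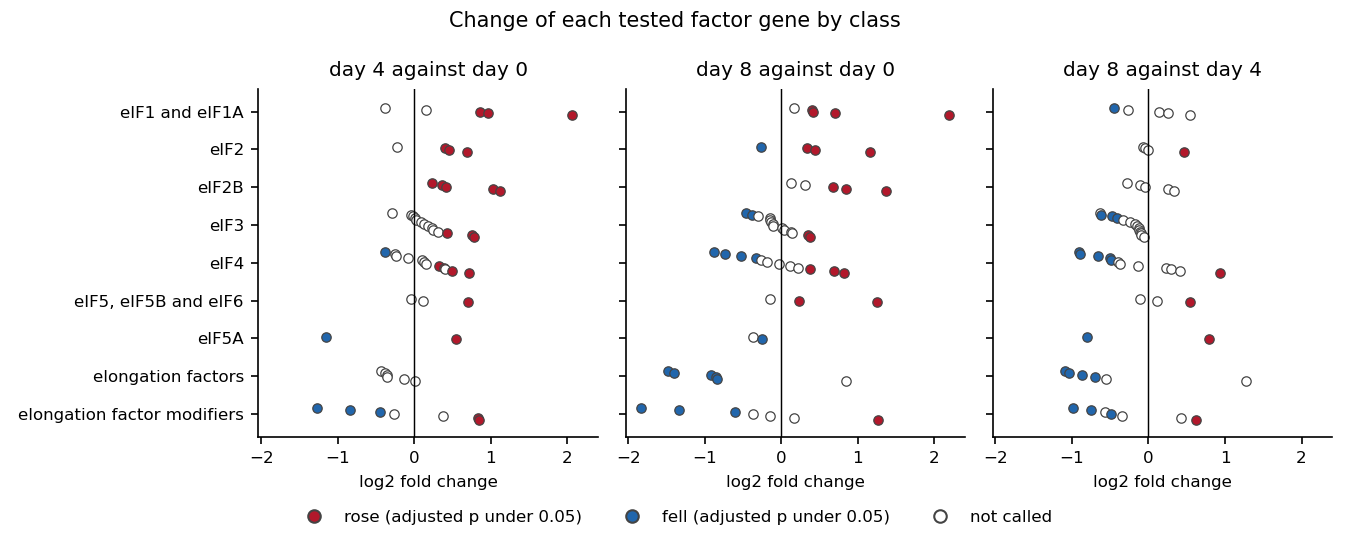
Fitted log2 fold change (x axis) of each tested factor gene, in rows by class, for day 4 against day 0, day 8 against day 0 and day 8 against day 4. Each point is 1 gene, red where it rose, blue where it fell and open where it was not called at an adjusted p under 0.05; at day 8 against day 0 the 5 blue elongation factors lie left of 0 and the 3 called eIF2B subunits right of 0, while eIF3 lies around 0.

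All 5 subunits of eIF2B, the exchange factor that recharges eIF2 and sets the response to eIF2 phosphorylation, rose at day 4 against day 0. By day 8, 3 of 5 were called against day 0, all as rises, and none was called between day 8 and day 4. Against day 0, 29.8% of all tested genes rose at day 4 and 34.2% at day 8. Eif2b1 (ENSMUSG00000029388, the alpha subunit) had 42.03, 41.4 and 38.3 CPM at day 0, 80.3, 86.7 and 98.9 CPM at day 4, and 78.3, 69.8 and 70.04 CPM at day 8. Eif2b4 (ENSMUSG00000029145, the delta subunit) had 25.2, 23.1 and 27.7 CPM at day 0, 55.04, 47.99 and 52.7 CPM at day 4, and 71.99, 71.1 and 53.6 CPM at day 8. In both genes every library of days 4 and 8 lay above every library of day 0. Eif2b1 was 2.18-fold higher at day 4 than at day 0 (fitted log2 value 1.13 ± 0.11 SE, edgeR adjusted p = 1.57e-05) and 1.79-fold higher at day 8 than at day 0 (0.84 ± 0.11 SE, edgeR adjusted p = 7.31e-05). Eif2b4 was 2.05-fold higher at day 4 than at day 0 (1.04 ± 0.13 SE, edgeR adjusted p = 0.000115) and 2.59-fold higher at day 8 than at day 0 (1.37 ± 0.13 SE, edgeR adjusted p = 1.54e-05).

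The other eIF2B subunits moved by smaller amounts. Eif2b3 (gamma) had 36.7, 32.2 and 33.4 CPM at day 0, 42.5, 42.1 and 51.6 CPM at day 4, and 54.5, 51.8 and 56.5 CPM at day 8, with log2 fold changes of 0.41 ± 0.11 at day 4 and 0.67 ± 0.11 at day 8, both against day 0. Both later days lay above day 0 in all libraries. Eif2b5, the catalytic epsilon subunit, had 53.6, 53.9 and 53.7 CPM at day 0, 70.5, 60.7 and 75.5 CPM at day 4, and 76.9, 69.9 and 53.3 CPM at day 8. All day 4 libraries were above day 0 (0.36 ± 0.14 SE, edgeR adjusted p = 0.0479), and day 8 replicate 3 lay just below all day 0 libraries. The day 8 value of Eif2b5 against day 0 was 0.31 ± 0.14 SE, edgeR adjusted p = 0.0701, and 0.45 (edgeR adjusted p = 0.000425) without day 4 replicate 2 and day 8 replicate 3. Eif2b2 (beta) had 41.2, 40.9 and 38.5 CPM at day 0, 46.4, 46.1 and 49.5 CPM at day 4, and 46.7, 45.04 and 39.9 CPM at day 8, with 0.24 ± 0.09 SE, edgeR adjusted p = 0.0486 at day 4 and 0.13 ± 0.09 SE, edgeR adjusted p = 0.245 at day 8, both against day 0. Its day 4 libraries lay above day 0 while its day 8 libraries overlapped them. The day 4 calls of Eif2b2 and Eif2b5 held in 7 and 8 of 18 alternative settings, so both sit at the edge of the threshold, and those of Eif2b1 and Eif2b4 held in all 18. With plain library totals 2 of 5 subunits rose at day 4 against day 0.

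eIF2 itself has an alpha, a beta and a gamma subunit, and they did not move together. Eif2s1, the alpha subunit whose phosphorylation curbs initiation, had 56.2, 56.3 and 51.5 CPM at day 0, 64.6, 76.5 and 74.8 CPM at day 4, and 71.4, 70.7 and 64.4 CPM at day 8. Its later libraries all lay above day 0, with 0.40 ± 0.10 at day 4 and 0.33 ± 0.10 at day 8, both called. Eif2s2 (beta) had 52.1, 53.1 and 47.9 CPM at day 0, 41.3, 43.3 and 46.7 CPM at day 4, and 41.6, 41.8 and 43.9 CPM at day 8. It was lower at both later days without overlap, and the fall was called at day 8 against day 0 (-0.27 ± 0.09 SE, edgeR adjusted p = 0.0225) but not at day 4 (-0.22 ± 0.09 SE, edgeR adjusted p = 0.0555). The gamma subunit has an X-linked and a Y-linked gene. Eif2s3y, on the Y chromosome, had 47.7, 39.2 and 44.7 CPM at day 0, 74.1, 63.2 and 75.2 CPM at day 4, and 105, 85.5 and 104 CPM at day 8. It rose at each step without overlap between days, by 0.69 ± 0.12 at day 4 against day 0, 1.16 ± 0.12 at day 8 against day 0 and 0.47 ± 0.12 at day 8 against day 4. Eif2s3x, on the X chromosome, had 6.24, 9.01 and 8.17 CPM at day 0, 10.4, 10.6 and 11.03 CPM at day 4, and 11.03, 11.8 and 9.07 CPM at day 8 and rose against day 0 by 0.45 ± 0.16 at day 4 and 0.45 ± 0.16 at day 8.

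**Figure D2:**
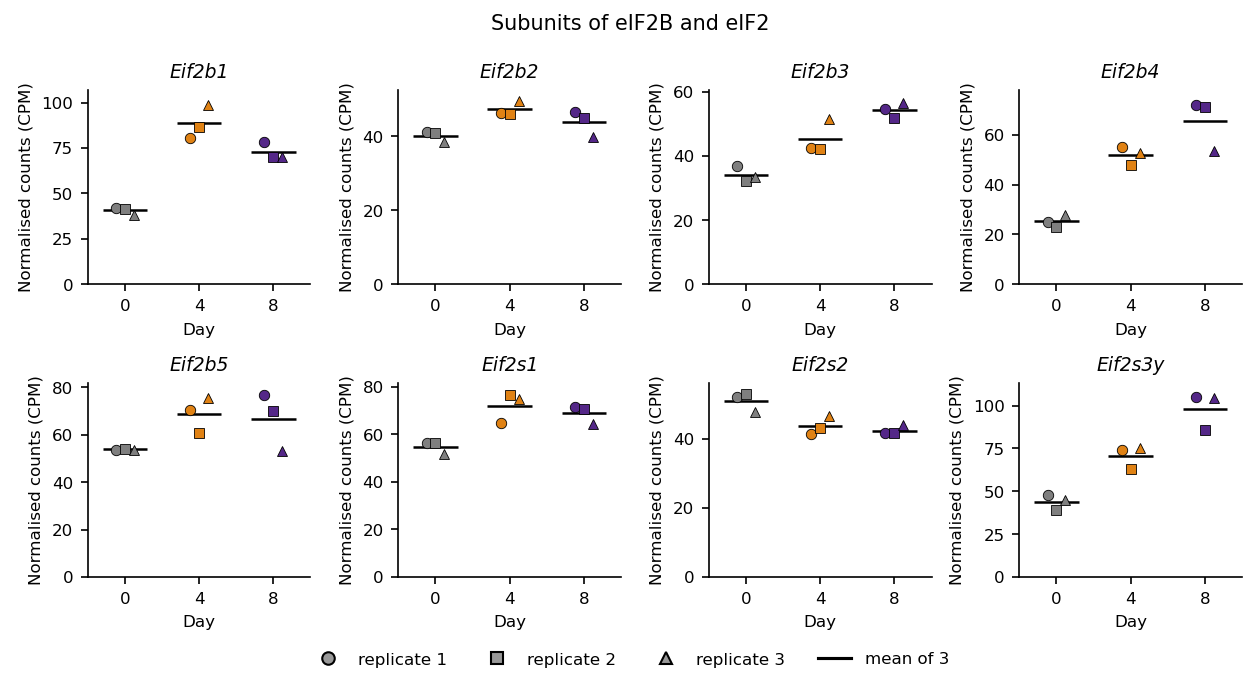
Normalised counts (CPM, y axis, starting at 0) by day (x axis) of the 5 eIF2B subunit genes and of Eif2s1, Eif2s2 and Eif2s3y; each symbol is 1 library and the bar is the mean of 3. Every day 4 library of Eif2b1 (80.3 to 98.9 CPM) lies above every day 0 library (38.3 to 42.0 CPM), and the triangle of day 8 replicate 3 lies low for Eif2b4 and Eif2b5.

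The start regions of the eIF2B subunits with the largest rises and of the elongation factors described further on are printed to show the DNA around the annotated starts of genes that moved in opposite directions. They span 100 bases before to 20 bases from the RefSeq start in GRCm38.p6, given 5′ to 3′ on the gene's strand. Capitals mark CACGTG (the E-box), TATAAA (a core promoter box) and CCGGAAG (an ETS-type site), each searched on both strands.
Eif2b1, chr5:124579112-124579231, minus strand: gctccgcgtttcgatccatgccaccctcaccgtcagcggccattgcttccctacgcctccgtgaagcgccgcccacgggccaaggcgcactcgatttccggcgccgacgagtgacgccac
Eif2b4, chr5:31193120-31193239, minus strand: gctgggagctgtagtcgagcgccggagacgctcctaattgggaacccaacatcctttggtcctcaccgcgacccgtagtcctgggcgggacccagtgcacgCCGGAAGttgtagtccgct
Eef1a1, chr9:78481705-78481824, minus strand: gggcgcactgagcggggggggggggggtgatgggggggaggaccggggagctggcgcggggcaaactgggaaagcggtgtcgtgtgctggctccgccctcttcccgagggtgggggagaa
Eef2, chr10:81176531-81176650, plus strand: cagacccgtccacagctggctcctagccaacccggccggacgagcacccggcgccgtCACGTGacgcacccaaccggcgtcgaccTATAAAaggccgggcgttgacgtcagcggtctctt

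These motifs do not overlap each other, and a match is a description of the letters only. Over the 300-base RefSeq windows, CCGGAAG was found in 29.0% of 62 windows of 48 tested members, beside 8.86% of 32851 windows of all genes. CACGTG was found in 25.8% of the member windows and 7.15% of all windows, and TATAAA in 8.06% and 13.6%. The windows of all genes include genes that did not pass the count filter, which the members did. No share over the tested genes alone was taken, so these gaps cannot be read as a trait of the family. Some genes have several windows, which can overlap. Counted by gene, CCGGAAG was found in 15 of 48 tested members and in 2683 of 27025 genes of the table. Of the 18 members that rose at day 8 against day 0, 13 had a 300-base window, and so had 13 of the 16 that fell. Among these, CCGGAAG was found in 5 of 13 that rose and 4 of 13 that fell. The E-box was found in 2 of 13 that rose and 5 of 13 that fell.

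The eIF1 and eIF1A factors act in scanning and start codon choice. Of the 5 tested eIF1 and eIF1A genes 3 rose at day 4 and 4 at day 8, both against day 0, and none fell. Over all tested genes 29.8% rose at day 4 and 34.2% at day 8. Eif1ad (ENSMUSG00000024841), which encodes a protein with an eIF1A-type domain, had 15.4, 16.00 and 13.6 CPM at day 0, 76.6, 44.3 and 67.7 CPM at day 4, and 71.3, 69.2 and 65.98 CPM at day 8. It was 4.18-fold higher at day 4 than at day 0 (2.07 ± 0.18 SE, edgeR adjusted p = 1.09e-05) and 4.58-fold higher at day 8 than at day 0 (2.20 ± 0.18 SE, edgeR adjusted p = 6.1e-06). No other tested member rose by as large a factor in these fits, and day 4 replicate 2 was the lowest of the later libraries. Eif1ax, the X-linked eIF1A gene, had 60.5, 57.7 and 54.98 CPM at day 0, 106, 109 and 124 CPM at day 4, and 96.03, 96.8 and 89.8 CPM at day 8, and its autosomal copy Eif1a had 87.3, 93.9 and 87.5 CPM at day 0, 150.5, 160.4 and 177 CPM at day 4, and 107, 111 and 139 CPM at day 8. Both lay above day 0 in all later libraries and were highest at day 4, with 0.97 ± 0.10 for Eif1ax and 0.86 ± 0.12 for Eif1a at day 4 against day 0. The values at day 8 against day 0 were 0.71 ± 0.10 and 0.41 ± 0.12, and Eif1a fell at day 8 against day 4 by 0.45 on the log2 scale. Eif1b, a close relative of the start codon factor eIF1, had 29.8, 27.2 and 31.4 CPM at day 0, 33.8, 33.00 and 31.4 CPM at day 4, and 42.2, 38.1 and 36.6 CPM at day 8 and rose at day 8 against day 0 (0.40 ± 0.10).

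Eif5 (ENSMUSG00000021282) encodes the GTPase activator that acts when eIF2 meets the start codon. It had 136, 140.0 and 131 CPM at day 0, 258, 164 and 241 CPM at day 4, and 331, 328 and 309.6 CPM at day 8. Days did not overlap at any step, and day 4 replicate 2 lay closest to day 0. The gene was 1.63-fold higher at day 4 and 2.38-fold higher at day 8 than at day 0 (0.71 ± 0.16 SE, edgeR adjusted p = 0.00339 and 1.25 ± 0.16 SE, edgeR adjusted p = 7.84e-05). Without day 4 replicate 2 the day 4 value was 0.89. Eif6, which keeps the large subunit from joining early, rose by 0.23 ± 0.09 at day 8 against day 0, a call that held in 8 of 18 alternatives. Eif5b, the subunit joining factor, was not called in any comparison (-0.14 ± 0.10 at day 8 against day 0). Eif2a and Eif2d, which can deliver initiator tRNA by other routes, were not called either, with values of 0.03 ± 0.12 and 0.21 ± 0.10 at day 8 against day 0.

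The 14 tested eIF3 genes, which include a pair of genes for the eIF3j subunit, moved little. At day 4 against day 0, 3 rose and none fell. Of the same genes 2 rose and 2 fell at day 8 against day 0, and at day 8 against day 4, 3 fell and none rose. The class median was 0.15, -0.11 and -0.16 in these comparisons. At day 8 against day 0, 28.6% of the eIF3 genes were called in either direction, beside 67.7% of all tested genes. Eif3i had the highest change at day 8 against day 0, and had 119, 137 and 117 CPM at day 0, 156, 168 and 178 CPM at day 4, and 166, 157 and 159.6 CPM at day 8. All later libraries lay above day 0 (0.37 ± 0.10 SE, edgeR adjusted p = 0.00866 at day 8). Eif3f, an MPN-domain subunit, had the lowest change, and had 155, 178 and 143 CPM at day 0, 101, 162 and 126 CPM at day 4, and 118, 105 and 122 CPM at day 8. All day 8 libraries lay below day 0 (-0.47 ± 0.17 SE, edgeR adjusted p = 0.0299), while the day 4 libraries overlapped them and spread from 101.0 to 162.3 CPM. Without day 4 replicate 2, Eif3f also fell at day 4 against day 0 (-0.48, edgeR adjusted p = 0.00818).

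Among the remaining eIF3 subunits, Eif3l rose against day 0 by 0.76 ± 0.12 at day 4 and 0.35 ± 0.12 at day 8. Eif3b fell by 0.38 at day 8 against day 0 and by 0.62 at day 8 against day 4 on the log2 scale. Eif3e fell by 0.47 at day 8 against day 4. The loosely bound eIF3j subunit has a pair of genes, both near 1 CPM or below. Eif3j1 had 0.6396, 0.712 and 0.718 CPM at day 0, 1.16, 1.02 and 1.38 CPM at day 4, and 0.5304, 0.829 and 0.924 CPM at day 8, and its day 4 libraries lay above day 0 (0.78 ± 0.29 SE, edgeR adjusted p = 0.0405). Eif3j2 had 0.457, 0.743 and 0.497 CPM at day 0, 0.6397, 0.605 and 0.761 CPM at day 4, and 0.614, 0.561 and 0.672 CPM at day 8, with all days overlapping. Eif3a, Eif3c, Eif3d, Eif3g, Eif3h, Eif3k and Eif3m were not called in any comparison, with values between -0.31 (Eif3a) and 0.03 (Eif3k) at day 8 against day 0.

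The eIF4 genes went both ways, also among genes of like function. Of 12 tested, 4 rose and 1 fell at day 4 against day 0, 3 rose and 4 fell at day 8 against day 0, and 1 rose and 5 fell at day 8 against day 4. The split at day 8 against day 0 is 25.0% and 33.3%, near the 34.2% and 33.5% of all tested genes. The scaffold gene Eif4g1 (ENSMUSG00000045983) had 422, 447 and 483 CPM at day 0, 732, 729 and 754 CPM at day 4, and 386, 396 and 404 CPM at day 8. All day 4 libraries lay above both other days. It was 1.64-fold higher at day 4 than at day 0 (0.71 ± 0.10 SE, edgeR adjusted p = 0.000274) and 1.87-fold lower at day 8 than at day 4 (-0.90 ± 0.10 SE, edgeR adjusted p = 0.000482). At day 8 against day 0 it was not called (-0.19 ± 0.10 SE, edgeR adjusted p = 0.132). Its paralog Eif4g3 had 112, 134 and 139 CPM at day 0, 169, 152 and 183 CPM at day 4, and 84.9, 88.2 and 94.9 CPM at day 8. It peaked at day 4 too, with 0.39 ± 0.12 at day 4 against day 0 and -0.91 ± 0.12 at day 8 against day 4, and day 8 lay below day 0 in all libraries (-0.52 ± 0.12). Eif4g2, which lacks the eIF4E-binding part, had 524, 603 and 592 CPM at day 0, 523, 531 and 567 CPM at day 4, and 657, 683 and 657 CPM at day 8 and was not called in any comparison.

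eIF4A is the helicase of the cap-binding complex. Eif4a2 (ENSMUSG00000022884) had 125, 102 and 108 CPM at day 0, 99.9, 86.5 and 95.4 CPM at day 4, and 194, 179 and 166 CPM at day 8. All day 8 libraries lay above the other days, with 0.69 ± 0.11 SE, edgeR adjusted p = 0.000455 against day 0 and 0.94 ± 0.12 SE, edgeR adjusted p = 0.000619 against day 4. Eif4a1 had 9.38, 13.1 and 12.3 CPM at day 0, 14.3, 16.8 and 17.7 CPM at day 4, and 12.95, 12.99 and 11.7 CPM at day 8 and rose only at day 4 against day 0 (0.49 ± 0.15 SE, edgeR adjusted p = 0.0166). Eif4a3, the helicase of the exon junction complex, was not called, with -0.03 ± 0.12 at day 8 against day 0. The helicase cofactors moved apart. Eif4b had 130.5, 146 and 149 CPM at day 0, 89.03, 134 and 104 CPM at day 4, and 74.9, 76.02 and 80.5 CPM at day 8 and was 1.84-fold lower at day 8 than at day 0 (-0.88 ± 0.14 SE, edgeR adjusted p = 0.000387), without overlap. Its relative Eif4h rose by 0.38 ± 0.10 at day 8 against day 0, also without overlap. The day 4 fall of Eif4b (-0.38 ± 0.14 SE, edgeR adjusted p = 0.0413) held in 7 of 18 alternatives.

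Of the cap-binding proteins, Eif4e had 7.95, 8.08 and 7.26 CPM at day 0, 7.36, 8.86 and 9.16 CPM at day 4, and 6.197, 6.39 and 6.72 CPM at day 8 and was not called in any comparison. Eif4e2, a cap-binding protein known as a repressor, had 66.2, 71.1 and 68.9 CPM at day 0, 73.6, 89.7 and 94.4 CPM at day 4, and 54.1, 59.4 and 49.97 CPM at day 8. It was above both other days at day 4 (0.32 ± 0.11 against day 0) and below day 0 at day 8 (-0.33 ± 0.11). Eif4e3, a further cap-binding gene at low counts, had 2.38, 2.48 and 2.04 CPM at day 0, 2.97, 2.504 and 3.67 CPM at day 4, and 4.72, 3.796 and 3.67 CPM at day 8 and rose at day 8 against day 0 (0.82 ± 0.21 SE, edgeR adjusted p = 0.00578). Eif4enif1, the eIF4E transporter found in processing bodies, was 1.66-fold lower at day 8 than at day 0 (-0.74 ± 0.12 SE, edgeR adjusted p = 0.000426).

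**Figure D3:**
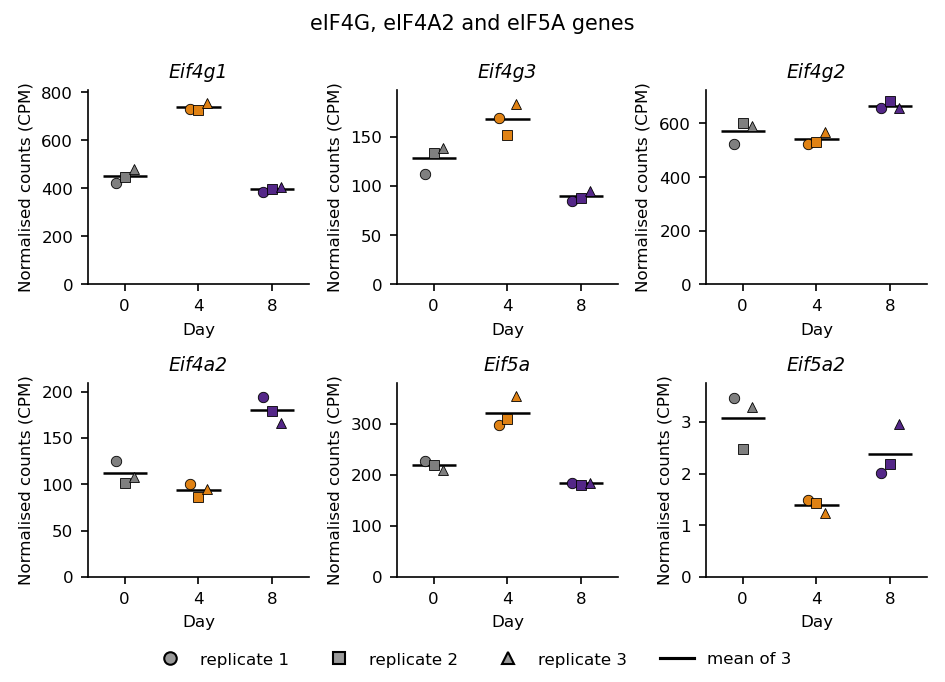
Normalised counts (CPM, y axis, starting at 0) by day (x axis) of the 3 eIF4G genes, Eif4a2 and both eIF5A genes; each symbol is 1 library and the bar is the mean of 3. Eif4g1, Eif4g3 and Eif5a are highest in all 3 day 4 libraries, Eif5a2 is lowest in them, and Eif4a2 is highest in all 3 day 8 libraries.

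The elongation factors fell by day 8. Of 6 tested genes, 5 fell at day 8 against day 0 and 4 at day 8 against day 4, and none rose. That is 83.3% and 66.7% of them, beside 33.5% and 17.1% of all tested genes that fell. The class took 0.193% ± 0.0162 of all counts at day 0, 0.141% ± 0.0457 at day 4 and 0.0942% ± 0.00631 at day 8 (SD, n = 3). Eef1a1 (ENSMUSG00000037742), the carrier of aminoacyl-tRNA, had 421, 515 and 448 CPM at day 0, 232, 490.2 and 356 CPM at day 4, and 173, 158 and 193 CPM at day 8. Eef2 (ENSMUSG00000034994), the translocase, had 973, 1125 and 1069 CPM at day 0, 621, 1106 and 742 CPM at day 4, and 598, 509.7 and 565 CPM at day 8. In both genes every day 8 library lay below every day 0 library, and day 4 replicate 2 lay within the day 0 range. Eef1a1 was 2.64-fold lower at day 8 than at day 0 (-1.40 ± 0.23 SE, edgeR adjusted p = 0.000458) and 2.06-fold lower at day 8 than at day 4 (-1.04 ± 0.23 SE, edgeR adjusted p = 0.00917). Eef2 was 1.89-fold lower at day 8 than at day 0 (-0.92 ± 0.20 SE, edgeR adjusted p = 0.00229) and missed the threshold against day 4 (-0.56 ± 0.20 SE, edgeR adjusted p = 0.055).

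All 3 genes of the eEF1B complex, which recharges eEF1A, fell at day 8 against day 0 and against day 4. Eef1b2, a catalytic subunit, had 192, 219 and 176 CPM at day 0, 143, 254 and 196 CPM at day 4, and 109, 93.7 and 123 CPM at day 8. Eef1g, the structural gamma subunit, had 31.5, 35.2 and 26.2 CPM at day 0, 16.5, 32.03 and 22.6 CPM at day 4, and 11.7, 11.3 and 10.3 CPM at day 8. Both had all day 8 libraries below the other days, and day 4 replicate 2 of Eef1b2 lay above every day 0 library. Eef1g at day 8 was 2.79-fold lower than at day 0 (-1.48 ± 0.22 SE, edgeR adjusted p = 0.000205), Eef1b2 1.8-fold lower (-0.85 ± 0.20 SE, edgeR adjusted p = 0.00353) and Eef1d, the delta exchange subunit, 1.79-fold lower (-0.84 ± 0.15 SE, edgeR adjusted p = 0.000623). The other eEF1A gene, Eef1a2, is known from muscle and neurons. It had 0.518, 0.186 and 0.0276 CPM at day 0, 0.0582, 0.385 and 0.0846 CPM at day 4, and 0.195, 0.0802 and 1.04 CPM at day 8, close to the limit of counting, and was not called.

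No elongation factor was called at day 4 against day 0, and this rested on 1 library. Without day 4 replicate 2 the values were -0.65 for Eef1a1 (edgeR adjusted p = 0.00796), -0.63 for Eef2 (edgeR adjusted p = 0.00119) and -0.66 for Eef1g (edgeR adjusted p = 0.00467), so that 3 of 6 fell. Over all members 11 then fell at day 4 against day 0 in place of 5. The share of all genes that fell in that fit is not given here, so neither count is set against it. Markers of dividing cells also fell at day 8, and those of other cell types did so only in part. All 4 dividing-cell markers fell at day 8 against day 0, beside 33.5% of all tested genes. So did 1 of 5 precursor markers (Pdgfra, -1.64), 2 of 5 macrophage markers (Lyz2 and Csf1r) and 2 of 3 endothelial markers (Cdh5 and Kdr). The other markers of these lists were not called, among them Cd68 (0.07) and Pecam1 (0.34). Day 4 replicate 2, the highest day 4 library in the elongation factors plotted by day, was also the highest in precursor and dividing-cell markers, at 1265 and 100.4 CPM. The part of these cells in the result was not tested.

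**Figure D4:**
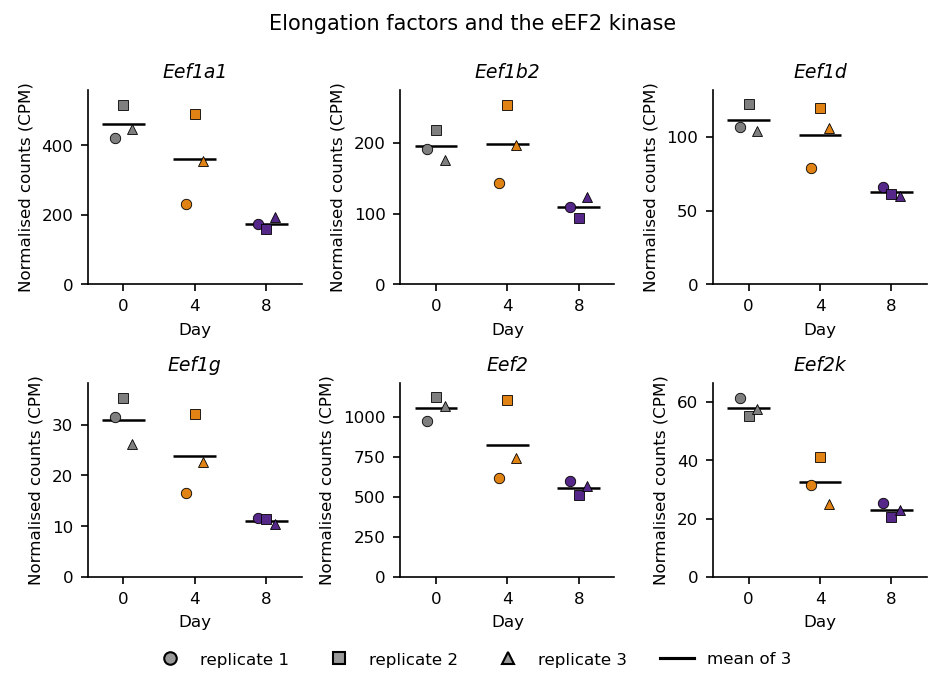
Normalised counts (CPM, y axis, starting at 0) by day (x axis) of 5 elongation factor genes and of the eEF2 kinase gene Eef2k; each symbol is 1 library and the bar is the mean of 3. All day 8 libraries lie below all day 0 libraries in each panel, and the square of day 4 replicate 2 is the highest day 4 value in each.

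A list of 9 members known as TOP mRNAs from mammals held 5 elongation factors with Eif3e, Eif3f, Eif3h and Eif4b, so it overlaps the counts above. By day 8, 7 of 9 fell against day 0 and none rose, beside 33.5% of all tested genes that fell. Cytosolic ribosomal proteins, the largest group of TOP mRNAs, took 0.284% ± 0.0302 of counts at day 0, 0.257% ± 0.0484 at day 4 and 0.197% ± 0.00546 at day 8. It is not given how reads that map to several places were counted in these rows. Of 81 tested ribosomal protein genes, 17 rose and 3 fell at day 4 against day 0, 5 rose and 41 fell at day 8 against day 0, and 46 fell and none rose at day 8 against day 4. The falls at day 8 were 50.6% against day 0 and 56.8% against day 4, beside 33.5% and 17.1% of all tested genes. Pabpc1, the poly(A)-binding protein whose mRNA also carries a TOP motif, fell by 1.13 on the log2 scale at day 8 against day 0. Its relative Pabpc4 was not called (0.22). Among 5 genes of poly(A)-binding proteins and their partners, 2 rose and 2 fell in this comparison. That is 40% each, beside 34.2% of all tested genes that rose and 33.5% that fell.

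Enzymes that modify the elongation factors moved in both directions. Eef2k (ENSMUSG00000035064), the kinase that inhibits eEF2, had 61.3, 55.1 and 57.5 CPM at day 0, 31.4, 41.03 and 24.9 CPM at day 4, and 25.3, 20.7 and 23.04 CPM at day 8. All later libraries lay below day 0. It was 1.79-fold lower at day 4 and 2.52-fold lower at day 8 than at day 0 (-0.84 ± 0.17 SE, edgeR adjusted p = 0.00171 and -1.33 ± 0.17 SE, edgeR adjusted p = 7.51e-05). Eef2kmt, an eEF2 lysine methyltransferase, had 14.4, 15.4 and 12.6 CPM at day 0, 29.4, 17.2 and 28.8 CPM at day 4, and 33.3, 33.97 and 34.3 CPM at day 8. It was 2.39-fold higher at day 8 than at day 0 (1.26 ± 0.19 SE, edgeR adjusted p = 0.000219), and again day 4 replicate 2 was the day 4 library nearest to day 0. Over the 7 diphthamide genes, which build another modification on eEF2, 3 rose at day 4 and 4 at day 8 against day 0, and none fell. These are 42.9% and 57.1% of them, beside 29.8% and 34.2% of all tested genes that rose. Dph6 and Dph5 rose by 0.74 and 0.73 at day 8 against day 0.

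The eEF1A methyltransferases did not share a direction. Eef1akmt2 had 13.6, 13.9 and 13.5 CPM at day 0, 10.03, 10.1 and 9.87 CPM at day 4, and 15.1, 14.8 and 16.2 CPM at day 8. Its day 4 libraries lay below both other days (-0.45 ± 0.10 against day 0), and it rose at day 8 against day 4 (0.62 ± 0.10). Eef1akmt4 had 1.89, 1.92 and 1.66 CPM at day 0, 2.56, 3.85 and 3.38 CPM at day 4, and 1.54, 1.66 and 1.74 CPM at day 8 and ran the other way, with 0.84 ± 0.21 at day 4 against day 0 and -0.99 ± 0.21 at day 8 against day 4. Eef1akmt3 was 3.56-fold lower at day 8 than at day 0 (-1.83 ± 0.27 SE, edgeR adjusted p = 0.000229) at a day 0 mean of 2.72 ± 0.264 CPM. Eef1akmt1 fell at day 8 against day 4 (-0.75 ± 0.16), and Eef1aknmt at day 8 against day 0 (-0.61 ± 0.15). Eef1e1, a component of the tRNA synthetase complex despite its symbol, rose at day 4 against day 0 (0.65 ± 0.14) and fell at day 8 against day 4 (-0.43 ± 0.14).

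eIF5A, which helps ribosomes through slow peptide bonds, has a pair of genes that moved in opposite directions in the comparisons with day 4. Eif5a had 228, 219 and 210.2 CPM at day 0, 298, 310.3 and 354 CPM at day 4, and 184, 181 and 185 CPM at day 8, and its day 4 libraries lay above both other days. Eif5a2 had 3.47, 2.48 and 3.28 CPM at day 0, 1.48, 1.43 and 1.24 CPM at day 4, and 2.01, 2.19 and 2.97 CPM at day 8, and its day 4 libraries lay below both other days. At day 4 against day 0 Eif5a was 1.47-fold higher (0.55 ± 0.10 SE, edgeR adjusted p = 0.00116) and Eif5a2 2.22-fold lower (-1.15 ± 0.24 SE, edgeR adjusted p = 0.00212). At day 8 against day 4 the directions were turned, at -0.81 ± 0.10 for Eif5a and 0.79 ± 0.24 for Eif5a2. Against day 0 both were lower at day 8. Eif5a was called (-0.26 ± 0.10 SE, edgeR adjusted p = 0.0471) and Eif5a2 was not (-0.37 ± 0.23). Eif5a2 held 44 to 119 counts per library. eIF5A works only after hypusine is made on it in 2 steps. Dhps, the enzyme of the first step, rose by 0.86 at day 8 against day 0, and Dohh, the enzyme of the second, was not called (-0.30).

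Shifts between paralogs were tested as the first gene's share of the counts of both, over the 3 days. This was done for 11 pairs by an exact permutation test over all 1680 arrangements, whose smallest p is 0.00357, with Benjamini-Hochberg adjustment over the pairs. The Eif4g1 share of Eif4g1 plus Eif4g2 was 44.0% ± 1.27 at day 0, 57.8% ± 0.637 at day 4 and 37.3% ± 0.734 at day 8 (SD, n = 3), with no overlap between days (exact p = 0.00357, adjusted 0.0196). The Eif4a1 share of Eif4a1 plus Eif4a2 was 9.53% ± 2.31, 14.8% ± 2.01 and 6.53% ± 0.256 at days 0, 4 and 8 (exact p = 0.00357, adjusted 0.0196). The Eif4e share of Eif4e plus Eif4e3 was 77.2% ± 0.771, 73.6% ± 3.82 and 61.4% ± 4.12 at days 0, 4 and 8 (exact p = 0.0107, adjusted 0.0393). All 3 pairs that passed were eIF4 genes. Other eIF4 pairs, Eif4e with Eif4e2 and Eif4g1 with Eif4g3, did not pass. The Eif4a1 share missed the threshold without day 8 replicate 1 or 2 (adjusted exact p = 0.0524 each), and the Eif4e share without day 0 replicate 3, day 4 replicate 3 or day 8 replicate 1 or 2 (0.0524 to 0.0655).

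Other pairs did not pass after adjustment. The Eif5a2 share of Eif5a plus Eif5a2 was 1.39% at day 0, 0.434% at day 4 and 1.28% at day 8 (exact p = 0.0286, adjusted 0.0786). The Eif4g1 share of Eif4g1 plus Eif4g3 was 77.9%, 81.5% and 81.6% at days 0, 4 and 8 (exact p = 0.0357, adjusted 0.0786). The remaining pairs, Eef1a1 with Eef1a2, Eif4e with Eif4e2, Eif1 with Eif1b, Eif1a with Eif1ax, Eif2s3x with Eif2s3y and Eif3j1 with Eif3j2, had adjusted exact p of 0.118 to 0.186. Shares are of counts and not per length, so they say nothing of which paralog protein is the more abundant.

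Several members have near-identical processed copies in the mouse genome, and how reads that map to several places were counted is not given in the sources used here. Eif1 had 1.86, 1.702 and 2.07 CPM at day 0, 2.06, 1.18 and 1.100 CPM at day 4, and 1.98, 2.41 and 1.93 CPM at day 8, and Eif4a1, Eif4e, Eif2s3x and both eIF3j genes were low as well. The pseudogene row Eif4a-ps4 held 240 to 456 counts per library, and it rose at day 4 and day 8 against day 0 (0.47 and 0.45). The pseudogene rows of Eef1a1 and Eef2 that passed the filter held 41 to 111 and 66 to 180 counts. Values of these genes and shares that include them are uncertain for that reason. The same limit applies to the ribosomal protein rows, which were not checked for such copies. At day 0 the 83 ribosomal protein genes took 0.284% of counts, beside 0.248% for the 14 eIF3 genes.

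Genes that act beside the members were counted from lists of translation roles. Of 9 termination and recycling genes 4 rose at day 8 against day 0 and 2 fell. That is 44.4% and 22.2%, beside 34.2% and 33.5% of all tested genes. Mcts1, a partner in recycling and reinitiation, rose by 1.27, and its relative Mcts2 by 1.22. Gspt2, one of the genes for release factor eRF3, fell by 1.38 on the log2 scale. All 10 mitochondrial translation factors tested rose at day 4 against day 0 and 9 at day 8 against day 0, with medians of 1.48 and 1.63. The shares of all tested genes that rose were 29.8% and 34.2%. The mitochondrial elongation factor G genes Gfm2 and Gfm1 and the factor Tu gene Tufm rose by 2.46, 2.20 and 1.80 at day 8 against day 0, while the cytosolic counterparts Eef2 and Eef1a1 fell. Of the selenocysteine genes Secisbp2 rose by 0.32 at day 8 against day 0, and the tRNA carrier gene Eefsec was not called (-0.03).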

How the data were processed

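The authors deposited raw counts per gene, as whole numbers in 1 table of 9 libraries. Per the submitters' processing notes the work used cutadapt, HISAT2, featureCounts and GRCm39. No source used here gives tool versions, strandedness, the feature type counted or the treatment of multi-mapped reads. Groups came from the labels. From the deposited counts, 14714 genes passed filterByExpr (minimum count 10), which held at least 99.95% of each library. After TMM scaling, edgeR 4.0.16 (R 4.3.3) ran its quasi-likelihood test, with all 9 libraries in 1 fit with day as the only term. Calls are at a Benjamini-Hochberg adjusted p under 0.05 over all tested genes, and SE is derived from the F statistic. CPM is on TMM-scaled library sizes. The members and lists were chosen with earlier results of these data known.

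Values per library are given by a rule: both genes of each paralog pair, all eIF2 and eIF2B subunits, the 4 largest called rises and falls per comparison with a mean of at least 100 counts in the higher day, the highest and lowest eIF3 subunit at day 8 against day 0, and the leading elongation genes with Eef2k. From lists of other genes up to 3 were named. Alternatives used DESeq2 1.42.0, limma 3.58.1, other scalings and filters, a replicate block and each library left out. The tests were tried on simulated data. No library pair agreed within sampling noise. RefSeq symbols matched 64 of 81 members. Shares are given ± SD over libraries. Paralog shares were tested by exact permutation of libraries over days.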

Additional observations from a re-analysis of the deposited data

How the results depend on the processing

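With plain library totals 14 members rose and 10 fell at day 4 against day 0, and 13 rose and 11 fell at day 8 against day 4. A test against a 1.5-fold change (edgeR glmTreat) left 5 rises and 2 falls at day 4 against day 0, 6 and 7 at day 8 against day 0, and 1 and 2 at day 8 against day 4. DESeq2 gave 9 rises at day 8 against day 4, and a fit of those days alone gave 3. Without day 4 replicate 2 and day 8 replicate 3 together, 11 members fell at day 4 against day 0. Leaving out 1 library at a time gave 16 to 23 rises and 4 to 11 falls at day 4 against day 0, 14 to 20 and 12 to 18 at day 8 against day 0, and 3 to 7 and 11 to 23 at day 8 against day 4. The 11 falls came without day 4 replicate 2, and the lowest counts at day 8 against day 4 without day 8 replicate 1. Shares of all tested genes called in these alternatives are not given here, so the counts are not results about the members alone.

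Without both libraries named above, the differences in paralog share between day 8 and day 0 were -3.03 points for Eif4a1 beside Eif4a2 (adjusted exact p = 0.0698), -17.4 for Eif4e beside Eif4e3 (0.0524) and -7.17 for Eif4g1 beside Eif4g2 (0.0524), none past the threshold. The p-values given here are of the test over all 3 days and not of the difference between day 8 and day 0. With these 7 libraries the smallest exact p is 0.00952. Over single libraries left out they ran from -4.28 to -2.04 for Eif4a1, from -17.4 to -13.5 for Eif4e, from -7.17 to -3.61 for Eif2s3x beside Eif2s3y, from -0.00167 to 0.248 for Eif5a beside Eif5a2, from -1.24 to -0.513 for Eif1 beside Eif1b, from 3.23 to 4.25 for Eif4g1 beside Eif4g3, from -7.71 to -3.70 for Eif1a beside Eif1ax, from -4.09 to 3.30 for Eif3j1 beside Eif3j2, from -0.16 to 0.914 for Eif4e beside Eif4e2 and from -0.268 to -0.0267 for Eef1a1 beside Eef1a2. The sign turned for the Eif3j1, Eif5a and Eif4e with Eif4e2 pairs, though not in a setting past the threshold. The Eif5a pair passed without day 0 replicate 2 or day 8 replicate 3 (0.0393 and 0.0295), Eif1a without day 8 replicate 3 (0.0295), and Eif2s3x without day 0 replicate 1 (0.0262). Eif1 passed without day 4 replicate 1 and Eif4g1 beside Eif4g3 without day 4 replicate 2 (0.0393 each). The cause was not tested.

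Replicate numbers recur on each day. Deviations from the day means of same-numbered libraries correlated at -0.20 to 0.19. Between day 0 and day 8 they correlated at 0.12, 0.071 and 0.085 for replicates 1, 2 and 3. Between day 4 and day 8 the values were 0.19, -0.20 and -0.14. The signs differ, so this check cannot decide whether the numbers pair libraries. A replicate block gave 20 rises and 5 falls at day 4 against day 0, 17 and 15 at day 8 against day 0, and 4 and 15 at day 8 against day 4. No member with values per library changed direction past the threshold under any alternative run. Shares per protein length were not run, since no protein lengths were used here. Depth limits Eef1a2, Eif3j1, Eif3j2, Eif1, Eif4e3, Eif5a2, Eef1akmt3 and Eef1akmt4, which had means under 5 CPM on every day.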
